A study of Mus musculus with 18 samples.

Results

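The neurotrophin genes described here were chosen by symbol and comprised 5 of the 53468 genes counted: the ligands Bdnf and Ntf3 and the receptors Ntrk2, Ntrk3 and Ngfr. All 5 had reads in all 18 libraries and passed the filter on low counts in each comparison. The mice carried Fmr1CRE, a single-base change in a cis-regulatory element (CRE) assigned to Fmr1, made with CRISPR/Cas9 on a C57BL/6 background, or were their wild-type (WT) littermates. Forebrain, midbrain and hindbrain of 3 Fmr1CRE and 3 WT mice were taken at postnatal day 25, so that each mouse gave all 3 regions and each of the 6 groups held 3 libraries. Several independent mutant lines were established in the study, and the line used for sequencing is not given in the sources used here. Poly(A) RNA was sequenced as 50-base single reads, and gene totals ranged from 22455512 to 28061185 estimated counts per library.

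Neurotrophins are small secreted proteins that support the survival, growth and synaptic plasticity of neurons. They are made as precursors and cleaved to the mature form. Brain-derived neurotrophic factor (Bdnf) signals through the receptor tyrosine kinase TrkB (Ntrk2) and neurotrophin-3 (Ntf3) through TrkC (Ntrk3), while p75NTR (Ngfr) binds all mature neurotrophins and their precursors. Ntrk2 and Ntrk3 also make truncated receptors that bind the ligand but lack the kinase, and in the adult brain truncated TrkB is abundant in astrocytes.

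The regional labels were compared with marker lists. The summed level of 10 forebrain markers was 658 to 982 CPM (counts scaled to a common library total after TMM normalisation) in the forebrain libraries, 276 to 489 in midbrain and 191 to 239.9 in hindbrain. For 10 hindbrain markers the sum was 13.3 to 26.2 CPM in forebrain, 176 to 436 in midbrain and 567 to 1236 in hindbrain. Midbrain markers were at 101 to 208 CPM in midbrain and 53.1 to 113 in hindbrain, which overlapped. In forebrain they were at 50.8 CPM in Fmr1CRE replicate 3 and at 13.6 to 25.6 in the other libraries. Oligodendrocyte markers were higher in hindbrain, at 30985 to 43362 CPM against 13771 to 17523 in forebrain and 18152 to 21375 in midbrain. Astrocyte markers overlapped between all regions, at 4275 to 8707 CPM in forebrain, 4651 to 6296 in midbrain and 4484 to 5949.8 in hindbrain. In bulk tissue, fewer cells of a type and less RNA per cell cannot be told apart.

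Several libraries stood apart. Fmr1CRE forebrain replicate 1 had the lowest forebrain sums of astrocyte markers (4275 CPM against 6100 to 8707 in the other forebrains), neuron markers (5350.5 against 5806 to 7124) and basal forebrain cholinergic markers (9.47 against 22.3 to 44.0). In both mice of replicate 3 the immediate early gene Fos, which is induced by neuronal activity, ran in opposite directions in forebrain and midbrain. It was at 3.87 CPM in Fmr1CRE forebrain and 33.6 in Fmr1CRE midbrain, and at 25.03 in WT forebrain and 4.93 in WT midbrain. Whether the forebrain libraries of these mice carry each other's genotype label could not be settled from the labels or the counts, so each forebrain genotype value holds only if the labels are right. The forebrain differences in gene level between genotypes are given with and without Fmr1CRE replicate 1 and both replicate 3 libraries.

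The receptor transcripts differ at a splice junction in the coding sequence, and the coding bases around it are shown because they define the forms counted below. Ntrk2 lies on the plus strand at chr13:58806569-59133970 (GRCm38/mm10). Its main full-length transcript, Ntrk2-201, encodes 821 codons and its main truncated transcript, Ntrk2-202, encodes 476, of which the first 464 are shared. In these 5′ to 3′ sequences the last 30 shared bases are in lower case and the bases of each form's own exon are in capitals.
Ntrk2-201 (chr13:58985802-58985861): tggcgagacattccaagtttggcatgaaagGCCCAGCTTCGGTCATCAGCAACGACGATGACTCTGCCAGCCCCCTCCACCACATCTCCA
Ntrk2-202 (chr13:58932023-58932060): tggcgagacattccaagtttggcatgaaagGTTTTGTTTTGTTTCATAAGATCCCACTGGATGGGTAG
The truncated form adds 35 coding bases of its own and then stops, whereas the first 60 own bases of the full-length form, which goes on to the kinase, are printed.

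Ntrk3 lies on the minus strand at chr7:78175959-78738012. Full-length Ntrk3-201 encodes 825 codons and truncated Ntrk3-202 encodes 612, sharing the first 528. The capitals again mark each form's own coding bases, which for the truncated form run over 2 exons.
Ntrk3-201 (chr7:78260355-78260414): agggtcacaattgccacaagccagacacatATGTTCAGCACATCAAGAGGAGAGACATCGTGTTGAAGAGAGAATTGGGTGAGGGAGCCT
Ntrk3-202 (chr7:78304292-78304426 and chr7:78302629-78302747): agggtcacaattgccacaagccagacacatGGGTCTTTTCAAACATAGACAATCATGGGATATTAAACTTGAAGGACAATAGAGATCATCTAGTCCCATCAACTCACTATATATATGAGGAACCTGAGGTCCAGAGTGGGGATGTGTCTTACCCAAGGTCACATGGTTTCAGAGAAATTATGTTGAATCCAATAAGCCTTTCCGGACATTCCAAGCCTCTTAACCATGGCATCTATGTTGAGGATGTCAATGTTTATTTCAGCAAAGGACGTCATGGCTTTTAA

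The first question was how the genes are distributed over the 3 regions. Bdnf, Ntrk2 and Ntrk3 were higher in forebrain and in midbrain than in hindbrain, Ntf3 was lower in forebrain than in hindbrain and midbrain, and no regional difference of Ngfr passed the test. Between forebrain and hindbrain 4 of the 5 genes passed edgeR's quasi-likelihood test at an adjusted p under 0.05, 3 higher and 1 lower, against 51.7% of the 20363 genes tested (26.4% higher and 25.3% lower). Between midbrain and hindbrain 3 of 5 passed, all higher, against 49.1% (25.1% higher and 24% lower). Between forebrain and midbrain 1 of 5 passed, lower, against 19.3% (9.38% higher and 9.96% lower). The shares of the 5 genes are over too few genes to be set apart from these backgrounds. The median log2 difference of all genes tested lay between -0.03 and 0.02 in the 3 comparisons. The regions of 1 mouse enter these tests as if they came from different mice, and no call on the 5 genes changed with the mouse as a block.

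**Figure D1:**
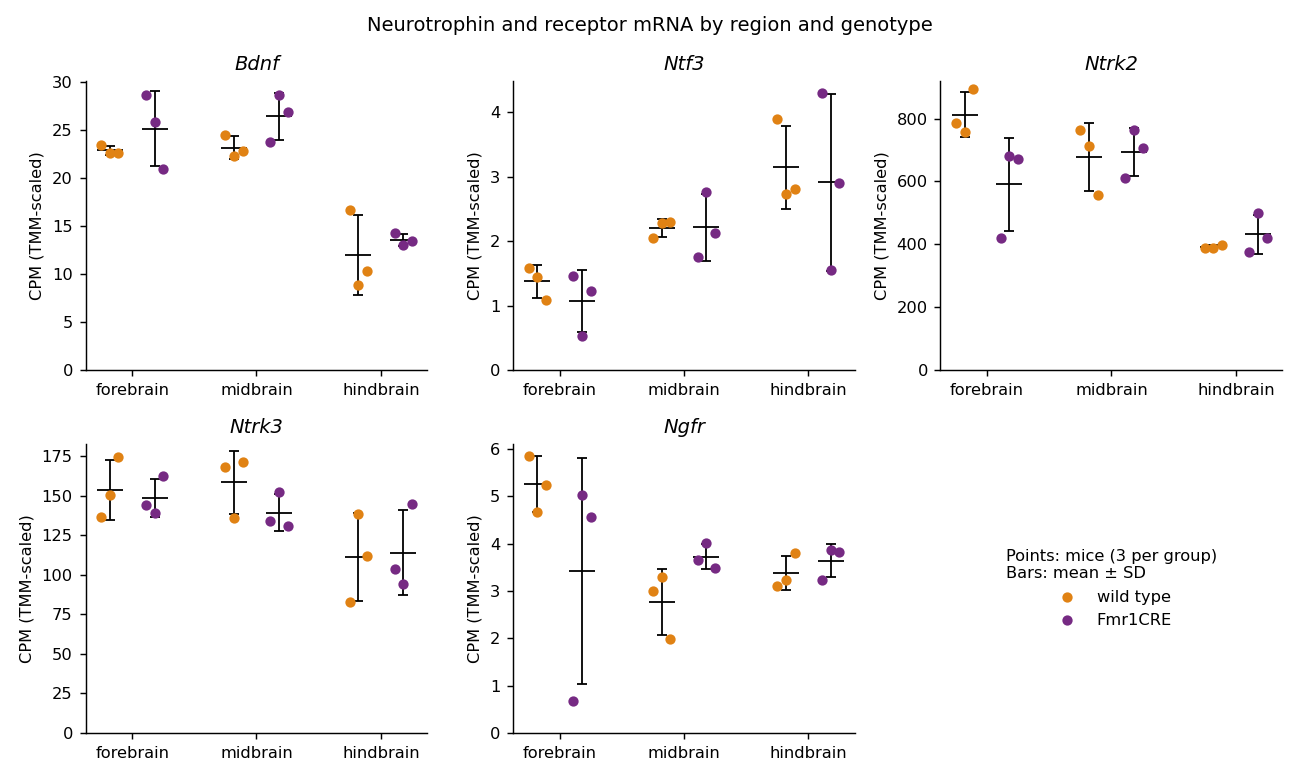
Level of each gene (CPM) in every library, by region and genotype, with 1 point per library and the mean and SD of each group of 3. Bdnf in hindbrain (8.90 to 16.7) lies below all forebrain and midbrain libraries, and 1 Ngfr library, Fmr1CRE forebrain replicate 1, lies at 0.671.

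Bdnf (ENSMUSG00000048482) is encoded at chr2:109674700-109727007 on the plus strand. Its level was 28.6, 25.8 and 20.9 CPM in Fmr1CRE forebrain and 23.5, 22.6 and 22.6 in WT forebrain. In midbrain it was 23.8, 28.7 and 26.9 CPM in Fmr1CRE mice and 24.5, 22.3 and 22.8 in WT mice. In hindbrain it was 14.2, 13.1 and 13.5 CPM in Fmr1CRE mice and 16.7, 8.90 and 10.4 in WT mice. No hindbrain library reached the lowest forebrain or midbrain library. Forebrain lay wholly above hindbrain for 14.7% of genes and midbrain for 16%. Forebrain was 1.88-fold above hindbrain (log2 difference 0.91, SE 0.13, edgeR adjusted p = 1.65e-05), and midbrain was 1.94-fold above it (0.96, SE 0.13, edgeR adjusted p = 1.52e-05). Forebrain and midbrain differed by -0.05 on the log2 scale (95% interval -0.31 to 0.22, edgeR adjusted p = 0.845).

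Bdnf is transcribed from several promoters, each with its own first exon spliced to a shared last exon that holds the coding sequence. Most estimated Bdnf reads went to transcripts with 3 of these first exons. Bdnf-211 took a mean of 40.3% of them in forebrain, 35.5% in midbrain and 36.7% in hindbrain. In the same order Bdnf-209 took 23.4%, 20.9% and 17.7%. Bdnf-205 took 21.1%, 22.9% and 24.6%, and Bdnf-201 took 8.23%, 11.2% and 6.65%. The estimates varied widely, with Bdnf-211 at 17.9 to 58.9% in forebrain and 0 to 55.1% in hindbrain. Its first exon (chr2:109693027-109693107) is much shorter than those of Bdnf-209 (chr2:109692436-109692774) and Bdnf-205 (chr2:109693563-109693909), so less sequence tells it apart. Reads on the shared exon cannot be assigned to 1 transcript, and no test was made on these shares. The 250 bases before the annotated start of Bdnf-209 are shown (RefSeq sequence of GRCm38.p6, plus strand) because this start lies near that of Bdnf-211 and the window holds a half-site of the cAMP response element.
Bdnf-209 (chr2:109692186-109692435): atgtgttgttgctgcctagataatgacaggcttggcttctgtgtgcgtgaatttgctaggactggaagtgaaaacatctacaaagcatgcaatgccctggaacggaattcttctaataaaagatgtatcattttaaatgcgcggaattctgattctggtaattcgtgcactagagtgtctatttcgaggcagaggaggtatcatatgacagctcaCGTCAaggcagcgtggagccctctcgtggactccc
The capitals mark the half-site, searched as TGACG or its reverse complement CGTCA, with its first base 35 bases before the start. Of the 5 Bdnf transcripts with reads whose start matched a RefSeq window, the other 4 (Bdnf-201, Bdnf-203, Bdnf-206 and Bdnf-211) held no half-site and none held the whole palindrome TGACGTCA, which contains the half-site on both strands. Of all windows of the same length, 17.8% of 32851 held a half-site and 1.55% the palindrome. These matches describe letters in the windows only.

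Ntf3 (ENSMUSG00000049107, chr6:126101412-126166910, minus strand) had 13 to 121 counts per library. It was at 1.46, 0.535 and 1.23 CPM in Fmr1CRE forebrain and 1.58, 1.45 and 1.10 in WT forebrain. Midbrain levels were 1.75, 2.77 and 2.13 CPM in Fmr1CRE mice and 2.05, 2.28 and 2.29 in WT mice. Hindbrain levels were 4.30, 1.55 and 2.90 CPM in Fmr1CRE mice and 3.89, 2.74 and 2.81 in WT mice. All forebrain libraries lay below all midbrain libraries, as did those of 5.35% of genes, whereas 1 hindbrain library lay within the forebrain range. Forebrain was at 0.402 of the hindbrain level (log2 difference -1.32, SE 0.26, edgeR adjusted p = 0.00049). Forebrain was also at 0.55 of the midbrain level (-0.86, SE 0.26, edgeR adjusted p = 0.0293). The second call was kept in 7 of 15 alternatives. Among others, it was lost in Fmr1CRE mice alone and without both replicate 3 mice (-0.85, edgeR adjusted p = 0.158). It was also lost with any 1 mouse other than Fmr1CRE replicate 1 left out (edgeR adjusted p from 0.0583 to 0.107). Over the 15 alternatives, by edgeR or DESeq2, the adjusted p reached 0.223. Midbrain and hindbrain differed by -0.45 (edgeR adjusted p = 0.146), which passed only without Fmr1CRE replicate 2 (-0.69, edgeR adjusted p = 0.00914).

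**Figure D2:**
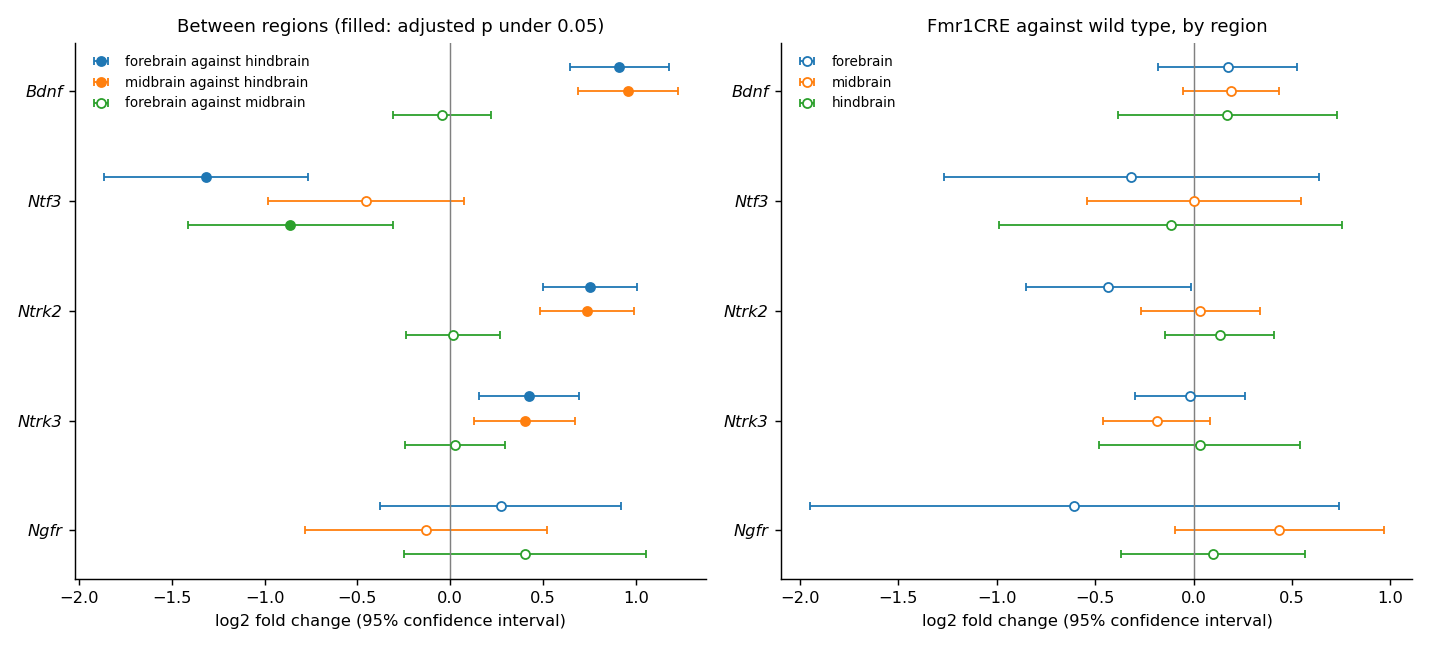
Log2 difference of each gene, as a point with its 95% interval, between regions and between genotypes within each region, from edgeR, with filled points where the adjusted test passed. Bdnf and Ntrk2 lie right of 0 and Ntf3 left of it between forebrain and hindbrain, whereas of the genotype intervals only that of Ntrk2 in forebrain leaves out 0 (-0.85 to -0.02), without passing the adjusted test.

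Ntrk2 (ENSMUSG00000055254), the receptor for Bdnf, was at 419.6, 679.9 and 672 CPM in Fmr1CRE forebrain and at 787, 756 and 893 in WT forebrain. In midbrain it was at 611, 763 and 706 CPM in Fmr1CRE mice and 761.9, 714 and 557 in WT mice. In hindbrain it was at 376, 499 and 420.2 CPM in Fmr1CRE mice and 389.7, 387 and 397 in WT mice. Every midbrain library lay above every hindbrain library, as did those of 16% of genes. Fmr1CRE forebrain replicate 1 was the 1 forebrain library inside the hindbrain range. Forebrain was 1.68-fold above hindbrain (log2 difference 0.75, SE 0.12, edgeR adjusted p = 6.57e-05) and midbrain 1.67-fold (0.74, SE 0.12, edgeR adjusted p = 0.000104). The difference of forebrain from hindbrain was 1.04 in WT mice alone (edgeR adjusted p = 0.000112) and 0.42 in Fmr1CRE mice alone (edgeR adjusted p = 0.115). Forebrain and midbrain differed by 0.01 (95% interval -0.24 to 0.27, edgeR adjusted p = 0.952).

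Ntrk3 (ENSMUSG00000059146), the receptor for Ntf3, showed smaller differences. It was at 144, 139 and 162 CPM in Fmr1CRE forebrain and at 137, 151 and 174 in WT forebrain. The midbrain libraries had 134, 153 and 131 CPM in Fmr1CRE mice and 169, 136 and 171 in WT mice. The hindbrain libraries had 103, 94.1 and 145 CPM in Fmr1CRE mice and 82.8, 139 and 112 in WT mice. The hindbrain range overlapped both others. Forebrain was 1.34-fold above hindbrain (log2 difference 0.43, SE 0.13, edgeR adjusted p = 0.0106) and midbrain 1.32-fold (0.40, SE 0.13, edgeR adjusted p = 0.0162). The first call did not hold without WT replicate 3 (edgeR adjusted p = 0.0528), in WT mice alone (0.0630) or in Fmr1CRE mice alone (0.132), and the second was lost in 6 of 15 alternatives (edgeR adjusted p from 0.0509 to 0.285). These were each genotype alone and leaving out Fmr1CRE replicate 1, Fmr1CRE replicate 2, WT replicate 1 or WT replicate 3. Forebrain and midbrain differed by 0.03 (edgeR adjusted p = 0.922). This difference turned to -0.20 and passed (edgeR adjusted p = 0.0448) when the reads estimated per transcript were summed without the length scaling of the deposited counts.

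That scaling moved Ntrk3 more than the other genes, its deposited count being 0.751 to 1.32 times its summed reads, against 0.928 to 1.09 for the other 4. The transcript Ntrk3-216, 224 bases long and annotated as a target of nonsense-mediated decay, had only 16.7 to 47.8 estimated reads per library. Per base of effective length it made up 65.7 to 82.8% of the Ntrk3 level. The level of Ntrk3 per length is therefore given below for the full-length and truncated forms only. The deposited counts are scaled from the level per length of all transcripts. The Ntrk3 CPM and its gene-level differences between regions and genotypes therefore rest largely on Ntrk3-216 and its few reads. With summed reads the log2 difference of forebrain from hindbrain was 0.30.

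Ngfr (ENSMUSG00000000120, chr11:95568818-95587735, minus strand), which encodes p75NTR, was low in all regions. It was at 0.671, 5.02 and 4.56 CPM in Fmr1CRE forebrain and at 5.85, 4.67 and 5.24 in WT forebrain. Midbrain held 3.66, 4.02 and 3.49 CPM in Fmr1CRE mice and 3.01, 3.30 and 1.99 in WT mice. Hindbrain held 3.23, 3.86 and 3.83 CPM in Fmr1CRE mice and 3.11, 3.23 and 3.79 in WT mice. Fmr1CRE forebrain replicate 1 held 17 counts against 58 to 134 in the other 17 libraries. With that library, forebrain differed from hindbrain by 0.27 on the log2 scale (95% interval -0.38 to 0.92, edgeR adjusted p = 0.481) and from midbrain by 0.40 (-0.25 to 1.05, edgeR adjusted p = 0.397). Without Fmr1CRE replicate 1 both differences passed, at 0.48 (edgeR adjusted p = 0.0213) and 0.64 (edgeR adjusted p = 0.0171). In WT mice alone they were 0.63 and 0.93, and each passed in 2 of 15 alternatives. In the adult brain p75NTR is typical of basal forebrain cholinergic neurons. Each of the 6 markers listed for these neurons was lowest in Fmr1CRE forebrain replicate 1 among the forebrains. The transcription factor Lhx8 was at 0.75 CPM there and 1.70 to 3.72 in the others. The list is not particular to forebrain, its sum being 9.47 to 44.0 CPM there and 35.9 to 70.5 in hindbrain. The part of these neurons in the Ngfr difference was not tested.

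Levels of different genes were compared as RPKM, here estimated reads per kilobase of effective length at a common library total. On this scale Bdnf was at 7.44 ± 1.13 (SD, n = 6) in forebrain, 8.07 ± 0.779 in midbrain and 4.28 ± 0.941 in hindbrain. Ntf3 was at 1.13 ± 0.370 in forebrain, 2.14 ± 0.318 in midbrain and 3.02 ± 0.965 in hindbrain. Both ligands were therefore closest in hindbrain, where their ranges, 3.07 to 5.61 for Bdnf and 1.54 to 4.25 for Ntf3, overlapped. Ntrk2 lay far above its ligand, with its full-length and truncated forms together at 108 ± 21.6 in forebrain, 109.5 ± 10.4 in midbrain and 68.4 ± 7.07 in hindbrain. For Ntrk3 the same sum was 16.4 ± 2.23, 18.6 ± 1.36 and 15.0 ± 1.64. Ngfr was at 1.05, 0.836 and 0.932 in the same order of regions.

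The receptor forms were compared next, from the reads estimated for each transcript by the authors. The transcript sets were joined to the libraries whose gene counts they matched, because only 2 of 18 matched the sample record they were attached to. Gene counts rebuilt from each set differed from those of 1 library by at most 0.179% of its total and from the next nearest by at least 9.23%. The first-exon shares and RPKM values above and the shares below rest on this join. Protein-coding transcripts ending at the stop codon of the longest reading frame were counted as full-length and those with another stop codon as truncated, and 0.00533 to 0.122% of Ntrk2 reads and 2.00 to 6.66% of Ntrk3 reads fell on others.

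Truncated transcripts held most Ntrk2 reads and the smaller part of Ntrk3 reads in every library. For Ntrk2 the truncated share was 70.1, 71.7 and 65.7% in Fmr1CRE forebrain and 70.6, 69.6 and 75.4% in WT forebrain. In midbrain it was 70.3, 69.5 and 68.0% in Fmr1CRE mice and 66.1, 66.3 and 66.4% in WT mice. In hindbrain it was 75.1, 77.7 and 76.8% in Fmr1CRE mice and 77.7, 76.8 and 73.1% in WT mice. The midbrain and hindbrain libraries did not overlap. The share was 8.45 percentage points lower in midbrain than in hindbrain (67.8 ± 1.82% against 76.2 ± 1.80%, SD, n = 6, exact permutation p = 0.00216, adjusted over 6 tests 0.00649). Forebrain, at 70.5 ± 3.15%, differed from hindbrain by -5.68 points (exact permutation p = 0.00649, adjusted 0.0130) and from midbrain by 2.77 points (exact permutation p = 0.0974, adjusted 0.117).

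**Figure D3:**
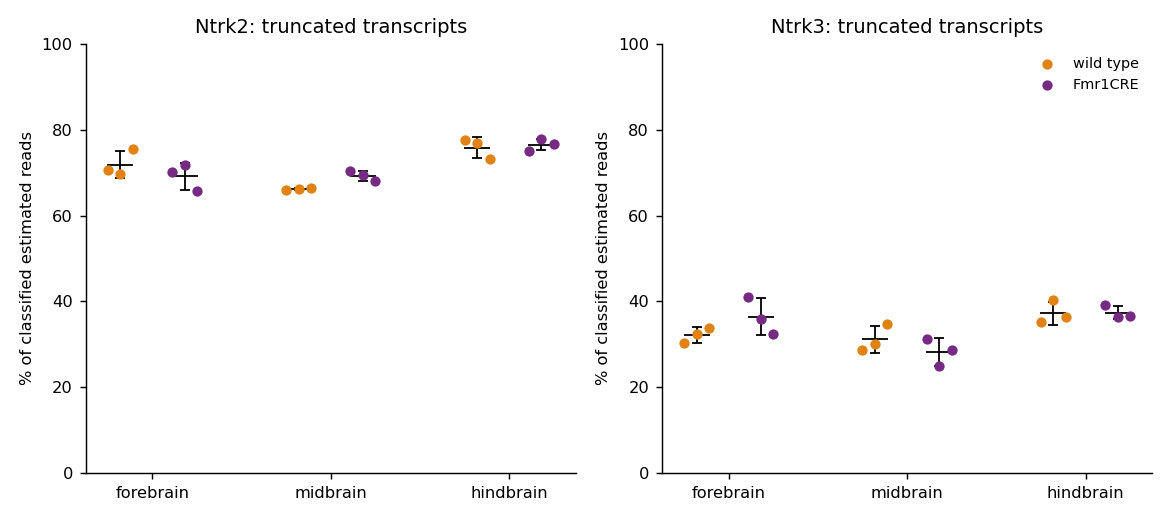
Share of classified estimated reads on truncated Ntrk2 (left) and Ntrk3 (right) transcripts, in percent, with 1 point per library and the mean and SD of each group of 3. Ntrk2 points lie between 65.7 and 77.7% and Ntrk3 points between 24.9 and 41.1%.

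For Ntrk3 the truncated share was 41.1, 35.9 and 32.4% in Fmr1CRE forebrain and 30.2, 32.3 and 33.8% in WT forebrain. Midbrain shares were 31.3, 24.9 and 28.6% in Fmr1CRE mice and 28.7, 29.95 and 34.7% in WT mice. Hindbrain shares were 39.0, 36.4 and 36.5% in Fmr1CRE mice and 35.2, 40.3 and 36.4% in WT mice. Midbrain and hindbrain again did not overlap. The share was 7.62 points lower in midbrain (29.7 ± 3.28% against 37.3 ± 1.94%, exact permutation p = 0.00216, adjusted 0.00649). Forebrain, at 34.3 ± 3.82%, differed from midbrain by 4.61 points (exact permutation p = 0.0411, adjusted 0.0617) and from hindbrain by -3.01 points (exact permutation p = 0.121, adjusted 0.121). With the 3 regions of a mouse paired, the 3 called differences kept their size but not the call, with adjusted p = 0.0938 for each in an exact sign permutation test. With 6 mice that test cannot give an unadjusted p below 0.0313, which both midbrain differences reached, whereas that of forebrain from hindbrain for Ntrk2 was at 0.0625. With the sets left at their sample records, no regional difference passed for either gene (exact permutation, adjusted p = 0.885 for all 6), and midbrain differed from hindbrain by -1.05 points for Ntrk2 and 0.44 for Ntrk3.

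In RPKM, full-length Ntrk2 was at 23.0 ± 4.50 (SD, n = 6) in forebrain, 26.6 ± 2.78 in midbrain and 11.1 ± 1.24 in hindbrain. Hindbrain libraries (9.76 to 13.1) lay below all forebrain (14.5 to 26.9) and midbrain libraries (22.8 to 29.8). Truncated Ntrk2 was at 84.7 ± 18.4, 82.9 ± 8.26 and 57.3 ± 6.20 in the same order. Full-length Ntrk3 was at 5.14 ± 0.335, 6.75 ± 0.790 and 4.31 ± 0.367. Its hindbrain libraries reached 4.64, just under the lowest forebrain library at 4.67, and lay below all midbrain libraries. By estimated reads full-length Ntrk3 overlapped between hindbrain (1495 to 2037) and forebrain (1977 to 2409). How often other transcripts separate in this way is not given here for either receptor. Truncated Ntrk3 was at 11.3 ± 2.08, 11.9 ± 1.18 and 10.7 ± 1.36, and its regions overlapped. Because Ntrk3-201 is 19703 bases long and Ntrk3-202 3977, truncated Ntrk3 was the minor form by reads and the major form per length.

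**Figure D4:**
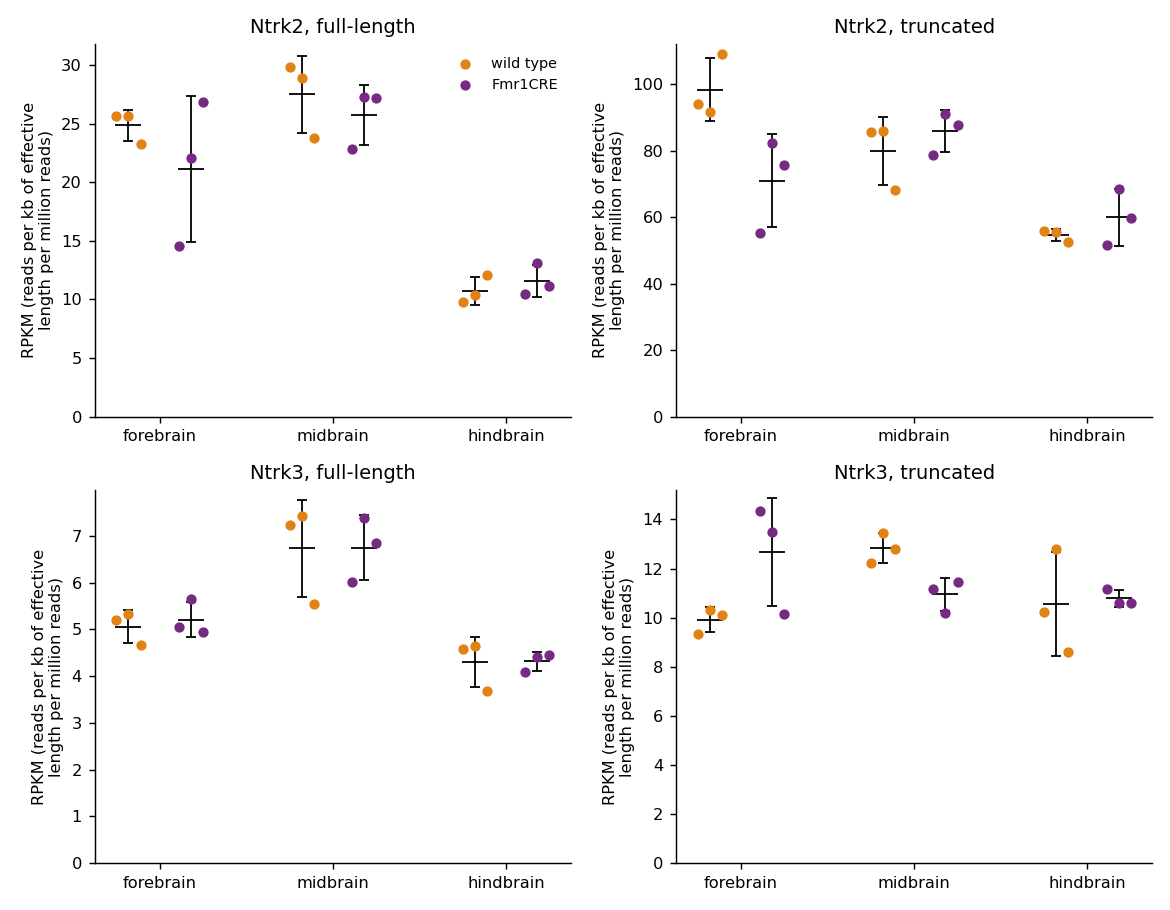
Level of full-length and truncated Ntrk2 and Ntrk3 transcripts in each library (RPKM, on effective lengths), by region. The full-length Ntrk2 points of hindbrain (9.76 to 13.1) lie below those of forebrain and midbrain, whereas the regions overlap for truncated Ntrk3.

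The second question was whether the genes differed between Fmr1CRE and WT mice. None of the 5 passed the adjusted test in any region, in the counts summed over the regions of each mouse, or in the genotype by region interaction. The background was as low, with 0% of 18467 genes called in forebrain, 0.00543% of 18400 in midbrain, 0% of 19112 in hindbrain, 0.00451% of 22191 in the summed regions and 0% of 20363 in the interaction. At an unadjusted edgeR p under 0.05 the comparisons held 5.43%, 6.17%, 5.13%, 3.7% and 7.54% of genes (1002, 1135, 981, 820 and 1535). DESeq2 called 31, 62, 60, 29 and 51 genes at an adjusted p under 0.05, again with none of the 5. Of the 5, only Ntrk2 was at an unadjusted p under 0.05, in forebrain and in the interaction.

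In forebrain the 3 Fmr1CRE libraries had less Ntrk2 than the 3 WT libraries, with means of 590.4 and 812 CPM and no overlap. Fmr1CRE libraries lay wholly below WT libraries for 5.99% of genes, and the exact permutation test gave p = 0.1, the smallest that 3 against 3 allow. The log2 difference was -0.43 (95% interval -0.85 to -0.02, edgeR unadjusted p = 0.0439, adjusted p = 0.806). Leaving out Fmr1CRE forebrain replicate 1, which was also lowest in astrocyte and neuron markers, brought it to -0.25, and leaving out both replicate 3 libraries to -0.44. Of 10 astrocyte markers only 1 was higher in Fmr1CRE than in WT forebrain, with a median log2 difference of -0.26 against 0.00 over all genes. None of them passed the adjusted edgeR test and 2 were at an unadjusted p under 0.05. Their summed level was 4275 to 6692 CPM in Fmr1CRE and 6100 to 8707 in WT forebrain. Of basal forebrain cholinergic markers 0 of 6 were higher in Fmr1CRE forebrain (median -0.33). Neuron markers were higher for 3 of 10 (-0.02) and oligodendrocyte markers for 5 of 10 (-0.03). Ntrk2 differed by 0.03 in midbrain and by 0.13 in hindbrain. The edgeR interaction test gave an adjusted p = 0.660 (unadjusted 0.0498). The part of astrocytes or of other cell types in the Ntrk2 difference was not tested.

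Ngfr was above WT in all 3 Fmr1CRE midbrain libraries without overlap (log2 difference 0.44, 95% interval -0.09 to 0.97, edgeR adjusted p = 0.814, exact permutation p = 0.1), as were 6.41% of genes. Without WT midbrain replicate 3 that difference was 0.24. Among basal forebrain cholinergic markers, Lhx8 was at 0.281 to 1.10 CPM in Fmr1CRE and 0 to 0.0871 in WT midbrain. Gbx1 was at 0.201 to 1.06 and 0 to 0.0816, whereas Slc18a3 was lower in Fmr1CRE (1.71 to 2.77 and 3.12 to 4.22). Of the 4 of these 6 markers that passed the filter, 1 was higher in Fmr1CRE midbrain (median log2 difference -0.46). The part of tissue content in the midbrain Ngfr difference was not tested. In forebrain Ngfr differed by -0.61 (-1.95 to 0.74), by -0.12 without Fmr1CRE forebrain replicate 1 and by -0.85 without both replicate 3 libraries. Bdnf differed by 0.17 in forebrain (95% interval -0.18 to 0.53), 0.19 in midbrain (-0.05 to 0.43) and 0.17 in hindbrain (-0.39 to 0.73). The forebrain value was 0.043 without Fmr1CRE replicate 1, 0.30 without Fmr1CRE replicate 3 (edgeR unadjusted p = 0.0375, adjusted p = 0.272) and 0.29 without both replicate 3 libraries. In hindbrain it ranged from -0.0051 without WT replicate 2 to 0.50 without WT replicate 1. Ntf3 differed by -0.32 (-1.27 to 0.64), 0.00 (-0.54 to 0.55) and -0.12 (-0.99 to 0.75) in the same order. Its forebrain value turned on single libraries, being -0.63 without Fmr1CRE replicate 1, 0.0063 without Fmr1CRE replicate 2 and -0.54 without both replicate 3 libraries. Its hindbrain value ranged from -0.51 without Fmr1CRE replicate 1 to 0.20 without Fmr1CRE replicate 2. Among the hindbrain libraries these had the highest and the lowest sum of hindbrain markers, at 1236 and 567 CPM. The part of tissue content in the Ntf3 values was not tested. Ntrk3 differed by -0.02 (-0.30 to 0.26), -0.19 (-0.46 to 0.09) and 0.03 (-0.48 to 0.54), and its forebrain value was -0.02 without Fmr1CRE replicate 1, 0.033 without both replicate 3 libraries and 0.17 with summed reads. No genotype difference in the truncated shares passed the exact permutation test (adjusted p from 0.6 to 0.8), which cannot go below 0.1 unadjusted. The truncated Ntrk2 share was 3.02 points higher in Fmr1CRE than WT midbrain without overlap (exact permutation p = 0.1, adjusted 0.6). This difference changed sign with the transcript sets left at their sample records.

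Other genes of the pathway were read from lists of related genes. Of 6 other ligands and receptors, 4 were higher and none lower in forebrain than in hindbrain, with a median log2 difference of 0.67 against -0.01 over all genes, of which 26.4% were called higher and 25.3% lower. In midbrain against hindbrain 4 were higher and none lower (median 0.78 against -0.03, with 25.1% of all genes called higher and 24% lower), and in forebrain against midbrain 0 passed the edgeR test, 1 being at an unadjusted p under 0.05. Sort1, which encodes the proneurotrophin co-receptor sortilin, was 1.04 higher in forebrain than hindbrain and 1.15 higher in midbrain (edgeR adjusted p = 5.77e-06 and 3.15e-06). Among its relatives, Sorcs2 was higher by 1.96 and 1.87, Sorcs3 by 0.83 and 1.09 and Sorcs1 by 0.51 and 0.47, all called. Ntf5, which encodes neurotrophin-4, had 1 to 14 counts and the p75NTR homologue Nradd 14 to 63, and neither was called.

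**Figure D5:**
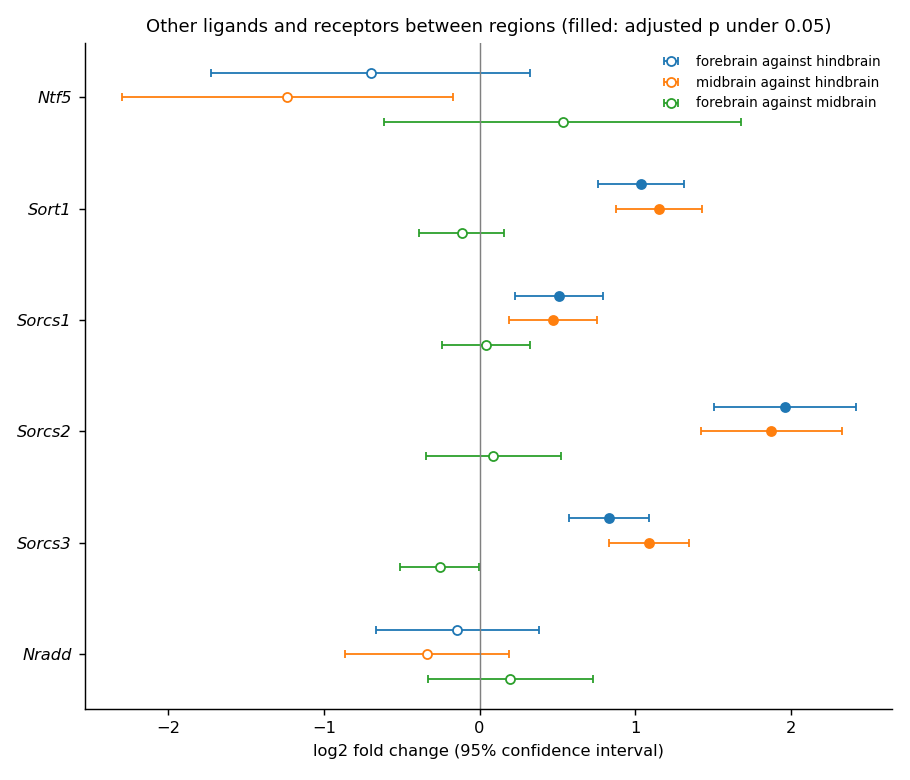
Log2 differences between regions with 95% intervals for the other neurotrophin ligands and receptors, from edgeR, with filled points where the adjusted test passed. Sort1, Sorcs1, Sorcs2 and Sorcs3 lie right of 0 against hindbrain in both comparisons, and no interval of Sort1, Sorcs1 or Sorcs2 between forebrain and midbrain leaves out 0.

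Of 9 genes of proneurotrophin processing, 5 were higher and 2 lower in forebrain than in hindbrain (median 0.59 against -0.01 over all genes), 6 higher and 1 lower in midbrain than in hindbrain (0.48 against -0.03), and 3 lower in forebrain than in midbrain (-0.34 against 0.02). Over all genes the called shares in these comparisons were 51.7%, 49.1% and 19.3%. The prohormone convertase Pcsk2 was higher by 1.56 in forebrain and 1.32 in midbrain, each against hindbrain, and Pcsk5 by 0.93 and 1.39. Pcsk7 was higher in forebrain by 0.92, whereas Pcsk6 was lower there (-0.86). Furin, a convertase of the secretory pathway, was 0.93 higher in midbrain than in hindbrain.

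Of 16 Trk adaptors and signalling genes, 5 were higher and 3 lower in forebrain than in hindbrain (median 0.07), 7 higher and 2 lower in midbrain than in hindbrain (0.24), and 1 higher and 4 lower in forebrain than in midbrain (-0.05). The 8 and 9 genes called against hindbrain were near the shares of all genes called there (51.7% and 49.1%), and the 5 called between forebrain and midbrain stood beside 19.3%. The adaptor Shc3, which is neuronal, was higher in forebrain than hindbrain by 2.46 (edgeR adjusted p = 8.5e-09) and in midbrain by 1.66. Shc2 was higher by 0.91 and 0.73, and Kidins220, a membrane scaffold of Trk receptors, by 0.69 and 0.80. Gab1 and Sos1 were lower in forebrain than in midbrain (-0.67 and -0.53).

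Immediate early genes, which neuronal activity induces as it does Bdnf, were higher in forebrain and midbrain than in hindbrain for 9 of 12 genes in each comparison, none being lower, against 26.4% and 25.1% of all genes called higher. Their median log2 difference was 2.52 in forebrain and 1.98 in midbrain. Arc ranged from 26.9 to 293 CPM in forebrain, 23.4 to 151 in midbrain and 13.4 to 24.3 in hindbrain, a wider spread within forebrain and midbrain than that of Bdnf (20.9 to 28.6 and 22.3 to 28.7). No gene of any of these lists passed between genotypes. Immediate early genes were higher in Fmr1CRE than WT mice for 9 of 12 in forebrain, 12 of 12 in midbrain and 11 of 11 tested in hindbrain. Their median log2 differences were 0.10, 0.52 and 0.70, against 0.0009, -0.0046 and -0.0091 over all genes. The summed levels overlapped, at 273 to 574 CPM in Fmr1CRE and 140 to 596 in WT midbrain. In hindbrain they were at 129 to 138 and 59.4 to 132 CPM. The part of activity in the Bdnf levels was not tested.

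The genes whose log2 CPM most resembled that of each of the 5 over the 18 libraries were listed as a description. For Bdnf these were Nr4a3 (Pearson r = 0.944), Ppfia2 (0.936) and Egr4 (0.929), and for Ntrk2 Sesn3 (0.981), Akap6 (0.975) and Gm38182 (0.970). For Ntf3 they were Cntn6 (0.902), Calb2 (0.897) and Kcnip1 (0.890), and for Ngfr Pard3 (0.903), Gm24975 (0.873) and Nts (0.863). For Ntrk3 the highest r was lower, with Adgb at 0.843. The libraries share mice, depth and the regional differences given above.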

How the data were processed

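Total RNA of 18 libraries (3 regions of 6 mice) was sequenced after poly(A) selection. The authors deposited estimated counts per gene, made with Salmon 0.14.0 and the mm10 build per the labels, and transcript tables with estimated counts and TPM. The gene values are length-scaled: 99.3% lay within 1 count of length-scaled transcript estimates and 71.7% within 1 count of summed ones. They were rounded to whole numbers. The deposited TPM served for rebuilding that scaling and for an alternative of the truncated shares, and RPKM were computed from estimated counts and effective lengths, since 1 short transcript took 31.5 to 46.6% of the TPM of a library. Whether reads were counted by strand is not given in the sources used here.

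Differential expression was tested with edgeR 4.0.16 (TMM, filterByExpr, quasi-likelihood, two-sided, Benjamini-Hochberg over all genes at 0.05). CPM are TMM-scaled. Genotypes were compared within each region, and regions in 1 model of the 6 groups. Truncated shares were compared with two-sided exact permutation tests (scipy 1.17.1). DESeq2 1.42.0, other filters and scalings, summed reads (chosen after seeing the data) and leaving out libraries were alternatives. The transcript sets were assigned by matching gene counts.

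The 5 genes are all members, with values in all libraries. Of the lists, the other ligands and receptors and, per comparison, the 4 or fewer called genes with the largest change were eligible to be named. A further 2 genes of the pathway are not reported here. Members and lists were chosen with earlier results of these data known. Regions share a mouse by origin. Replicates of a group are different mice of 1 litter, and differed by more than counting noise (chi-square per gene 11.2 to 57.7). All gene-count columns were mapped to samples. The edgeR script was tested on simulated data.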

Additional observations from a re-analysis of the deposited data

How the results depend on the processing

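Each genotype result was recomputed under up to 14 alternatives and each regional one under 15, and the alternatives are those named in the methods. The 5 genes kept 0 calls between genotypes in every one of them. Assigning each transcript set to the sample record it was attached to moved each difference in truncated share further than any other alternative, except Ntrk3 between genotypes in midbrain, which went from -2.87 to -2.68 there and ranged from -4.40 to -1.06 with 1 mouse left out. The Ntrk2 difference then fell to -0.29 points for forebrain against hindbrain and -1.05 for midbrain against hindbrain, and that of Ntrk3 turned to 0.95 and 0.44. Between genotypes it turned to -1.90 (midbrain) and -5.56 (hindbrain) for Ntrk2 and to -1.13 (forebrain) and -6.13 (hindbrain) for Ntrk3. This alternative places 16 of 18 sets with a library other than the one whose gene counts they matched. With the replicate block (mice paired over regions), the values -5.68 and -8.45 for Ntrk2 and -7.62 for Ntrk3 no longer passed (adjusted p = 0.0938), -8.45 and -7.62 being at the smallest p that 6 pairs allow (0.0313) and -5.68 at 0.0625. Same-numbered mice of the 2 genotypes did not deviate together (r -0.12 to 0.07), and blocking on the number changed no call on the 5 genes. Leaving out 1 mouse at a time, the Ntrk2 share of forebrain against midbrain ranged from 1.52 to 3.78 points and passed at 3.78, without Fmr1CRE replicate 3. That of Ntrk3 ranged from 3.32 to 5.71 and passed at 5.71, without WT replicate 3. For forebrain against hindbrain Ntrk3 ranged from -4.02 to -2.02 and passed at -4.02, without Fmr1CRE replicate 1.

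Of the 5 genes, 2 instead of 4 were called between forebrain and hindbrain in Fmr1CRE mice alone. Between forebrain and midbrain 2 instead of 1 were called with summed reads, 0 without both replicate 3 mice, 0 in Fmr1CRE mice alone and 0 to 2 with 1 mouse left out. Uncalled gene-level differences between genotypes changed sign under 1 or more alternatives for Ntf3 and Ntrk3 in forebrain, Ntf3 and Ntrk2 in midbrain, Bdnf, Ntf3 and Ntrk3 in hindbrain, and Ntf3, Ntrk2, Ntrk3 and Ngfr in summed regions. Among these, Ntrk3 turned to 0.17 (forebrain) and 0.033 (summed regions) with summed reads and to 0.093 in forebrain without WT replicate 3, and Ntrk2 in summed regions ranged from -0.20 to 0.023 with 1 mouse left out. Between regions, uncalled signs changed for Bdnf, Ntrk2, Ntrk3 and Ngfr in forebrain against midbrain, Ngfr in forebrain against hindbrain and Ngfr in midbrain against hindbrain. Ntrk2 in forebrain against midbrain turned to -0.13 without both replicate 3 mice and -0.23 in Fmr1CRE mice alone. In Fmr1CRE mice alone Ngfr in forebrain turned to -0.13 against hindbrain and -0.13 against midbrain, and Ntrk3 in forebrain against midbrain turned to -0.20 with summed reads. The cause was not tested. Over all genes, the interaction called 131 without both replicate 3 mice against 0 with them. DESeq2 called 31 to 62 genes within regions, 29 over mice and 51 in the interaction, against 0 or 1. Fmr1CRE mice alone gave 6178, 527 and 4847 regional calls for forebrain against hindbrain, forebrain against midbrain and midbrain against hindbrain, against 10530, 3939 and 9994, with fewer libraries. Apart from DESeq2, the other counts within regions and over mice stayed between 0 and 11, and forebrain against midbrain called 1729 genes in WT mice alone and at least 2258 with 1 mouse left out. Ntf3, Ngfr and Ntf5 rest on few reads.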

Other observations

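Among genes that differed by more than 2 on the log2 scale, in the same direction, between the Fmr1CRE and WT mouse of the same replicate number in both midbrain and hindbrain, the forebrain difference had the opposite sign for 17 of 49 genes in replicate 1, 22 of 46 in replicate 2 and 35 of 49 in replicate 3. With genes of mean log2 CPM above 0 only, it did so for 10 of 16, 6 of 15 and 6 of 8. With forebrain differences above 2 as well, it did so for 9 of 25, 8 of 18 and 17 of 25. All 3 filters were chosen after the data were seen.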
